A study of Mus musculus with 4 samples.

Results

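The genes described here encode splicing factors, the proteins that remove introns from pre-mRNA and choose which exons are joined. They were taken by symbol from the annotated protein-coding genes of the mouse (Srsf followed by a digit, Sf3a, Sf3b, U2af, Hnrnp, Snrp and Prpf), leaving out Hnrnpa2b1 and Hnrnpc. Of 66 such genes 61 had a peak of N6-methyladenosine (m6A), and they carried 147 of the 20727 distinct peaks in the deposited list. The list comes from methylated RNA immunoprecipitation sequencing (MeRIP-seq), in which an antibody pulls down fragments of poly(A) RNA that carry m6A and the reads are compared with those of input RNA. Per the labels there were 4 libraries from natural killer (NK) cells of the spleen (strain C57BL/6), 2 m6A immunoprecipitates and 2 inputs without antibody. According to the study's methods the NK cells were first expanded in the mice by injection of pLIVE-IL-15, a plasmid expressing the NK cell growth factor IL-15, and were then sorted from the spleen. This expansion is common to both groups, so no unexpanded NK cells were compared. The methods put the mice of the study at 6 to 10 weeks of age. The genotype of these particular mice and the number of animals behind each library are not given in the sources used here.

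The list gives each peak 1 fold enrichment (immunoprecipitate over input) and 1 peak-calling p-value for all 4 libraries together, so no value per library and no error between replicates can be shown. The total reads per library are unknown. Wilson intervals (95%) below cover counting error over peaks, which are not replicates, and no test was run across peaks or genes. All 8 NK cell markers examined (Ncr1, Klrb1c, Klrd1, Gzmb, Prf1, Eomes, Tbx21 and Il2rb) had a peak. So did 1 of 3 B cell, 1 of 3 T cell, 3 of 3 myeloid and 1 of 2 red cell markers. Over all protein-coding genes 46.2% had a peak, and a peak is not a level of expression.

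Introns are recognized at their ends, the 5' and 3' splice sites. U1 and U2 small nuclear ribonucleoproteins (snRNPs) bind first, then a U4/U6.U5 tri-snRNP joins and the spliceosome is activated. SR proteins (Srsf genes) mostly favor the use of nearby exons and hnRNP proteins often oppose it. Many of these genes limit their own output through isoforms that keep an intron or include an exon with an early stop codon. In mRNA m6A lies mostly near the stop codon and in the 3' UTR, within the consensus DRACH, where D stands for any base but C, R for a purine and H for any base but G.

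To show the RNA under the most significant peak of each family, 1 DRACH site from each is printed 5' to 3' on the strand of the gene (GRCm38), with the motif in capitals. A GGACT, then another GGAC, was taken before other forms, and then the site nearest to the center of the peak. The site in Hnrnpul2 is not a GGAC, since none lay in that peak of 601 nt.
Srsf5, chr12:80950113-80950133, plus strand, 3' UTR: gtagatgtGGACCaccaaggg
Sf3b5, chr10:13008854-13008874, plus strand, coding sequence: ccgcccgcGGACAagcccgag
U2af1, chr17:31648244-31648264, minus strand, coding sequence: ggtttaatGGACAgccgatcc
Hnrnpul2, chr19:8831792-8831812, plus strand, 3' UTR: aatcaaaaAAACCgtttgcac
Snrpd2, chr7:19152506-19152526, plus strand, coding sequence: ggagatgtGGACTgaggttcc
Prpf19, chr19:10905461-10905481, plus strand, 3' UTR: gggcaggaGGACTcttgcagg

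The next sites, chosen in the same way, lie in peaks with a fold enrichment of at least 5 that the list names for retained-intron isoforms. Of the 2 such peaks in Snrpc 1 is shown. They are printed because these sequences are intronic in the longest coding transcript of their genes. The site in the first Sf3b3 peak lies in no annotated exon of that gene, so it is not sequence of the isoform named.
Sf3a1, chr11:4171668-4171688, plus strand, intron 5: cggcagggGGACAggctcctt
Sf3b3, first peak, chr8:110845203-110845223, minus strand, intron 1: ggttccctTGACCataagaag
Sf3b3, second peak, chr8:110845683-110845703, minus strand, intron 1: gtattttaGGACTaaatctta
Srsf6, chr2:162932620-162932640, plus strand, intron 2: gccattttAAACTaagtaatg
Snrpa, chr7:27194840-27194860, minus strand, intron 2: accatttgGGACAacatggcc
Snrpc, chr17:27841769-27841789, plus strand, intron 2: aaacatgaGGACAttgaaata
Hnrnpll, chr17:80045438-80045458, minus strand, intron 6: gacattttGGACActataatt

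Peaks on splicing factor genes were mostly of low fold enrichment and well supported. Their median fold enrichment was 1.77 (interquartile range 1.46 to 3.5, extremes 1.1 and 159), against 2.37 over the 18250 peaks of all protein-coding genes. Peaks with an enrichment of 5 or more are called strong here. They were 29 of 147 (19.7%, Wilson interval 14.1 to 26.9), against 29.5% of peaks of all protein-coding genes and 34.6% of all distinct peaks. A p-value under 0.001 was found for 116 of 147 peaks (78.9%), against 62.3% (61.5% of all distinct peaks). Both conditions held for 21 peaks (14.3%), against 15.9%. The peaks just inside and just outside the threshold were at Hnrnpul2 (5.28) and Hnrnpm (4.88). Leaving out Hnrnpr, which had the 3 highest values, gave a median of 1.75 and a strong share of 17.6%.

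**Figure D1:**
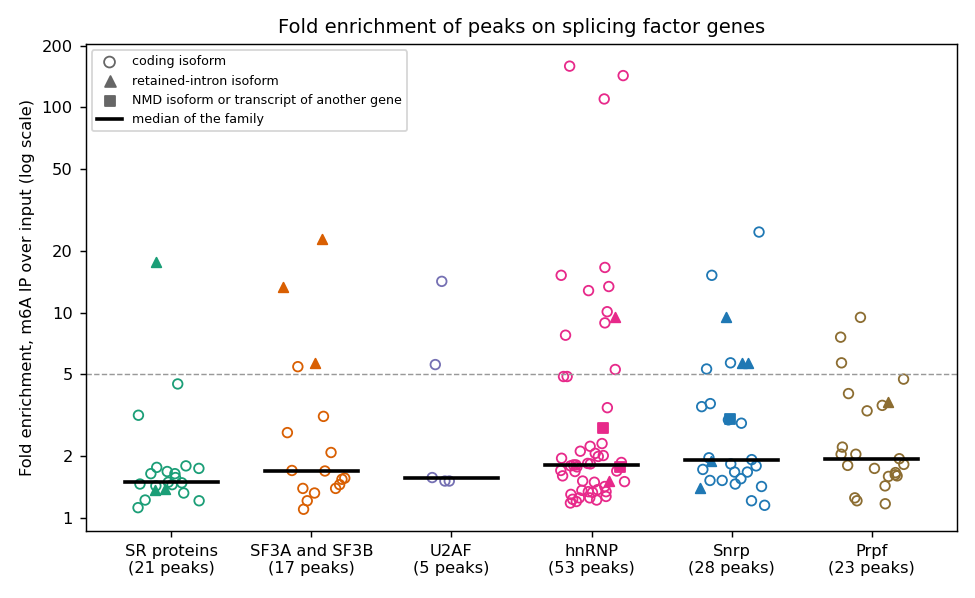
Fold enrichment (m6A immunoprecipitate over input, log scale) of each of the 147 peaks, by gene family, with the family median as a bar and a fold enrichment of 5 as a dashed line. Medians lie between 1.49 and 1.94, and the 3 highest points are the Hnrnpr peaks at 110, 143 and 159.

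A peak was found in 92.4% of the splicing factor genes and in 46.2% of all 22028 annotated protein-coding genes, but expression in NK cells was not analysed here. The genes without a peak were Prpf4, Prpf40b, Snrpn, Srsf9 and Srsf12. A single peak was found in 17 genes, 2 in 20 genes, 3 in 11, 4 in 8 and 5 in 5. Those with 5 were Hnrnpab, Hnrnpr, Prpf19, Snrpc and Srsf4. In 21 of the 61 genes (34.4%) at least 1 peak was strong, against 43.4% of all protein-coding genes with a peak. Of the 147 peaks, 8 pairs overlapped each other on the same gene, and merging them left 139 peaks and a strong share of 20.1%.

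The SR proteins bind exonic enhancers through RNA recognition motifs and recruit spliceosome components through their arginine-serine domains. They had 21 peaks in 9 of 11 genes, with a median fold enrichment of 1.49. Of these 1 was strong (4.76%, Wilson interval 0.846 to 22.7), and 18 of 21 had a fold enrichment under 2 (91 of all 147 splicing factor peaks, 61.9%, and 39.7% of peaks of all protein-coding genes). The most significant peak of the whole group lay in this family, at Srsf5 (ENSMUSG00000021134, chromosome 12, 80949758 to 80950267). It had a log10 p of -429, which is rank 69 of all peaks, with a fold enrichment of 4.49. Its exonic part of 510 nt was centered 34 nt past the stop codon and held 10 DRACH sites. Srsf1 had peaks of 1.64 and 1.79, centered 1713 and 4014 nt past the stop codon. Both Srsf3 peaks (1.46 and 1.68) and the Srsf7 peak (1.57, log10 p of -17.7) were also in the 3' UTR. Of the 18 SR protein peaks with a p-value under 0.001, Srsf5 and an intronic peak of Srsf6 described below were the ones with an enrichment above 2. Srsf4 had 5 peaks. Those in its last exon form overlapping pairs (1.49 and 1.48 in the coding sequence, 1.43 and 1.32 in the 3' UTR), and the highest, 3.16, lay in the 5' UTR with a log10 p of -2.04. Both pairs lay wholly in exons of Gm12992 on the opposite strand.

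SF3A and SF3B are the protein complexes of the U2 snRNP that hold the branch point. All 9 genes had a peak, 17 in all, with a median fold enrichment of 1.69 and 4 strong peaks (23.5%, Wilson interval 9.56 to 47.3). Of the strong ones 3 were named for retained-intron isoforms of Sf3a1 and Sf3b3, described below. The fourth was at Sf3b1, which encodes the subunit that contacts the branch region. It had a fold enrichment of 5.45 (log10 p of -5.29) and lay 2045 nt past the stop codon, while the other Sf3b1 peaks were at 1.7 in the 3' UTR and 1.1 in the coding sequence. The most significant was at Sf3b5 (log10 p of -31.1, fold enrichment 3.12), centered 106 nt past the stop codon. In Sf3b6, whose product touches the branch-point adenosine, the 3 peaks were between 1.39 and 1.45 and spread along the transcript.

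U2AF binds the polypyrimidine tract and the AG of the 3' splice site as a dimer of the products of U2af2 and U2af1. Its family had 5 peaks in 3 genes, each with a p-value under 0.001. The U2af1 peak (ENSMUSG00000061613, chromosome 17, 31647082 to 31648288) was enriched 14.2-fold, and its log10 p was -130. Its exonic part of 473 nt was centered in the coding sequence, at -107 nt from the end of the stop codon. The U2af2 peak (ENSMUSG00000030435, chromosome 7, 5079342 to 5079670) was enriched 5.58-fold (log10 p of -128) and lay 190 nt past the stop codon. Each held 4 GGAC motifs. A second U2af2 peak at the 5' end was at 1.51, and both peaks of U2af1l4, a paralog of U2af1, were at 1.51 and 1.57. The U2af1l4 peaks share 141 nt with each other and lie wholly in exons of Gm49396 on the same strand. Both genes of the dimer thus had a strong peak around the stop codon, with ranks of 357 and 365 by significance.

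The hnRNP family was the largest, with 53 peaks in all 18 genes, a median fold enrichment of 1.81 and 12 strong peaks (22.6%, Wilson interval 13.5 to 35.5) in 7 genes. Among these 11 had a p-value under 0.001. Hnrnpd, whose product AUF1 binds AU-rich elements, had overlapping 5' UTR peaks of 13.4 and 8.91 (log10 p of -52.5 and -55.3), and a 3' UTR peak of 1.34. The 5' peaks held 0 DRACH sites and lay mostly or wholly in exons of Gm17092, antisense to the gene. Hnrnpl had a peak of 10.1 (log10 p of -56.4) in the first part of its coding sequence, and its other peaks were between 1.25 and 2.3. Hnrnpul2 had 5.28 at its 5' end and 3.44 (log10 p of -134) past the stop codon. Hnrnpll, a regulator of alternative splicing in lymphocytes, had a peak of 15.2 (log10 p of -3.31) of which 49 of 720 nt lay on a protein-coding isoform. Hnrnpa0, annotated as a single exon, had a peak of 12.8 (log10 p of -61.8) that covered 44.5% of its exonic length. Low enrichment and low p-values also occurred together. The overlapping Hnrnpf peaks past the stop codon were at 2.01 and 2.11 (log10 p of -51.5 and -52.2), and a 3' UTR peak of Hnrnpk was at 1.5 (-36.8). At Hnrnpa1 the values were 1.37 (-26.5) and 1.2 (-4.8). Hnrnpa1 and Hnrnpa3 have processed pseudogenes close to their sequence, so reads may be split between copies and their values are uncertain. Such a split of reads was not tested, for these or for other genes of the group.

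Hnrnpr, which encodes an RNA-binding protein related to SYNCRIP, had the 3 highest fold enrichments of the group. In this gene (ENSMUSG00000066037, chromosome 4, plus strand) a peak near the end of the coding sequence (136339499 to 136339979) stood at 7.76, with a log10 p of -118. The adjoining one past the stop codon had 2.06 and -13.7. Far downstream lay peaks of 159 (136345738 to 136347958, log10 p of -101), 143 (136349878 to 136354557, -66.3) and 110 (136354797 to 136355727, -25.3). They were centered 6820, 12189 and 15234 nt past the stop codon. One annotated coding isoform reaches them, Hnrnpr-207, with a 3' UTR of 19419 nt. The 3' UTRs of the other 3 isoforms with an annotated stop codon measure 653 nt, 653 nt and 835 nt. Over these 3 peaks there were 31, 108 and 22 DRACH sites, and 1 of each is printed here.
Hnrnpr, peak of 159, chr4:136347342-136347362, plus strand: aagtgctgGGACTaaaagctt
Hnrnpr, peak of 143, chr4:136352326-136352346, plus strand: ttacaatgGGACTttctctct
Hnrnpr, peak of 110, chr4:136355451-136355471, plus strand: tactgcttGGACCttccatta

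The first of the 3 shared 112 nt with an exon of Gm27022, a noncoding RNA of the opposite strand, and the other 2 touched no exon of another gene. The last had the same pair of fold enrichment and log10 p as 7 other peaks of the list. By fold enrichment they were ranks 181, 228 and 347 of all peaks.

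**Figure D2:**
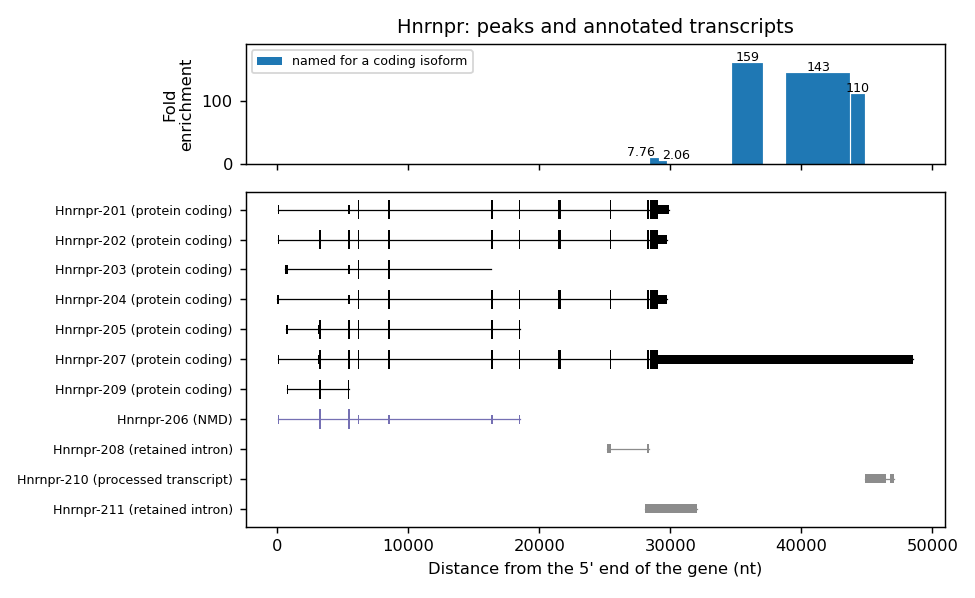
Peaks on Hnrnpr (bars, height is fold enrichment, width is the genomic span) above its annotated transcripts, along the distance from the 5' end of the gene in nt (thick boxes, coding sequence; thin boxes, untranslated or noncoding exons). The peaks of 159, 143 and 110 lie in the long 3' UTR of Hnrnpr-207, beyond the end of the other coding isoforms.

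The Snrp genes encode the ring of Sm proteins that all but one of the major spliceosomal snRNPs share (Snrpb, Snrpd1, Snrpd2, Snrpd3, Snrpe, Snrpf and Snrpg) and proteins of U1 (Snrpa, Snrpc) and U2 (Snrpa1, Snrpb2). They had 28 peaks in 11 of 12 genes, with a median fold enrichment of 1.91 and 7 strong peaks (25%, Wilson interval 12.7 to 43.4). The 7 Sm genes held 14 peaks with a median of 2.95, against 2.37 over peaks of all protein-coding genes. Of these 14 peaks 12 (85.7%) had a p-value under 0.001, against 62.3%, and 4 (28.6%) were strong, against 29.5%. Snrpd3 had 15.2 (log10 p of -74.2) across its stop codon. Snrpd2 had 5.69 (-55.5) in the 5' UTR and 3.0 (-143) centered in the coding sequence. Snrpg had 5.31 (-45.4) in the 5' UTR. At Snrpe the peaks were 3.48 (-67.5) and 1.96 (-82.7) and covered 193 and 182 nt of its longest coding transcript of 669 nt. Snrpd1 had 1.92 (-37.8) at the stop codon and 1.42 at the 5' end. Snrpf had 2.89 over its coding sequence and 24.7 (log10 p of -5.93) over the last 298 nt of its 3' UTR, but this stretch lay wholly in exons of Ccdc38 on the opposite strand, which the first peak also touched. Snrpb had 1.67 at its 5' end and 1.52 at its 3' end. The U1 and U2 proteins had lower values on their coding isoforms, between 1.15 and 1.83 except at Snrpa1 (3.6, spanning the stop codon). The 4 strong Sm peaks, at Snrpd2, Snrpd3, Snrpf and Snrpg, thus each had a p-value under 0.001, the one at Snrpf being the least significant.

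Prpf genes encode factors found as pre-mRNA processing mutants in yeast, many of them in the tri-snRNP or around it. They had 23 peaks in 11 of 13 genes, a median fold enrichment of 1.94 and 3 strong peaks (13%, Wilson interval 4.54 to 32.1). Prpf8, the scaffold of the catalytic center, had 1.66 past its stop codon and 1.17 in the coding sequence. Prpf31 had 1.82 (log10 p of -18). Prpf19, a ubiquitin ligase, had a peak of 3.53 (log10 p of -43.4) centered 219 nt past its stop codon. It also had 4 peaks between 1836 and 4322 nt past it, with fold enrichments of 4.74, 3.32, 5.69 and 7.59 and a log10 p from -2.37 to -1.31. These 4 lie on the isoform with the longest 3' UTR and did not reach a p-value of 0.001. Prpf38b had a peak of 1.43 (log10 p of -37.8) in its coding sequence and 1 of 4.03 (-24.2) further down, 829 nt past the stop codon.

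**Figure D3:**
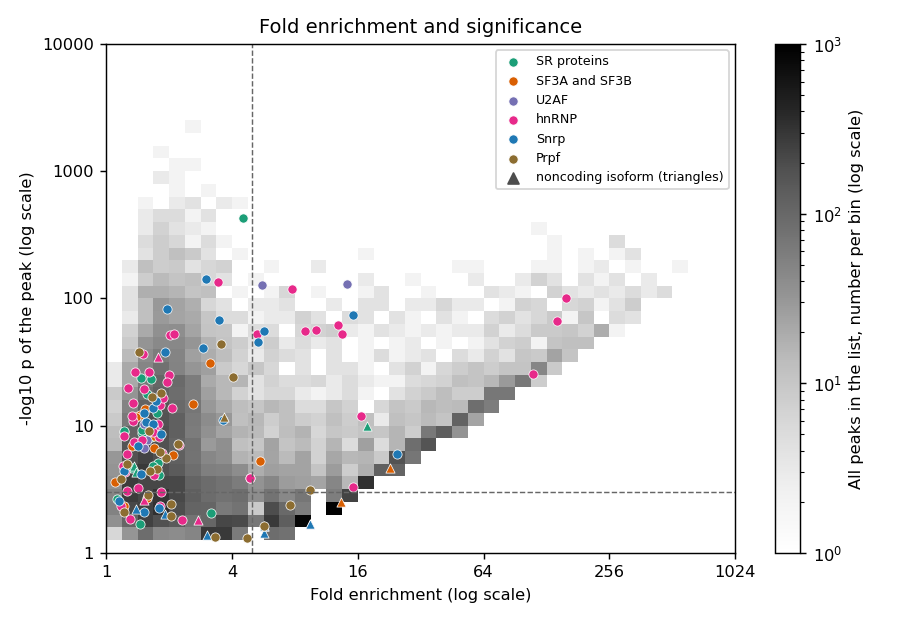
Fold enrichment against -log10 p, both on log scales, for the 147 splicing factor peaks (colored by family, triangles for noncoding isoforms) over the density of all 20727 peaks (gray). Dashed lines mark a fold enrichment of 5 and a p-value of 0.001. Of the strong peaks, 19 of 21 on coding isoforms and 2 of 8 on retained-intron isoforms lie above the horizontal line.

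The peaks were next split by isoform. A peak labelled as UTR or named for a protein-coding transcript counts as coding, which gave 130 peaks in 59 genes. The other 17 peaks (11.6%) in 13 genes were named for another kind of transcript, against 8.82% of peaks of all protein-coding genes. Among peaks with a p-value under 0.001 the order turned, with 6 of 116 (5.17%) against 5.58%. Of these 17 peaks 14 were on retained-intron isoforms (the class holds 5.14% of peaks of all protein-coding genes), 1 on an isoform marked for nonsense-mediated decay and 2 on transcripts of another gene. In 11 of the 13 genes there was also a peak on a coding isoform, the exceptions being Sf3a1 and Sf3b3. By position 16 peaks overlapped 0 nt of a protein-coding isoform (9.85% of peaks of all protein-coding genes did), and 15 of them were in this class. Strong peaks made up 8 of 17 (47.1%, Wilson interval 26.2 to 69) of the noncoding and 21 of 130 (16.2%, 10.8 to 23.4) of the coding class. The gap was 30.9 percentage points (Newcombe interval 8.78 to 53.5). Over all protein-coding genes the shares were 57.6% and 26.8%, a gap of 30.8 points. In the splicing factors it was 16.1 points among peaks with a p-value under 0.001, with 2 of 6 noncoding peaks strong (interval of the difference -8.96 to 53.2), against a gap of 41.8 points over all protein-coding genes.

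All 8 strong noncoding peaks were on retained-intron isoforms, in 6 genes, which made 8 of 14 such peaks strong against 63.2% over all protein-coding genes. A p-value under 0.001 was reached by 2 of the 8, against 43.8% of strong retained-intron peaks of all protein-coding genes. Srsf6, an SR protein gene, had the best supported (ENSMUSG00000016921, chromosome 2, 162932401 to 162932700), at 17.7 and a log10 p of -9.84. It covered 23.4% of intron 2 of the longest coding transcript, an intron of 1283 nt that the retained-intron isoform keeps. A second peak on that isoform (1.38) also covered 190 nt of coding exons, and the 3' UTR peak was at 1.12. Sf3b3, the gene of a large SF3B subunit, had peaks of 22.8 (110844966 to 110845437, log10 p of -4.61) and 5.69 (110845497 to 110846457, log10 p of -1.63) in its first intron on chromosome 8, and no other. The second covered 46.3% of that intron. Of the first peak 211 of 472 nt lay in annotated exons of the gene. The splice sites of these 2 introns are printed with the terminal intron bases in capitals.
Srsf6, intron 2, 5' splice site, chr2:162932135-162932154, plus strand: aagccgcaGTgagtccttac
Srsf6, intron 2, 3' splice site, chr2:162933406-162933433, plus strand: actcccttcatgtgataaAGgtggtgga
Sf3b3, intron 1, 5' splice site, chr8:110846663-110846682, minus strand: gcagcaggGTaaagaagtgg
Sf3b3, intron 1, 3' splice site, chr8:110844592-110844619, minus strand: ttctgtttttgtgtccgtAGtctgcttt

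**Figure D4:**
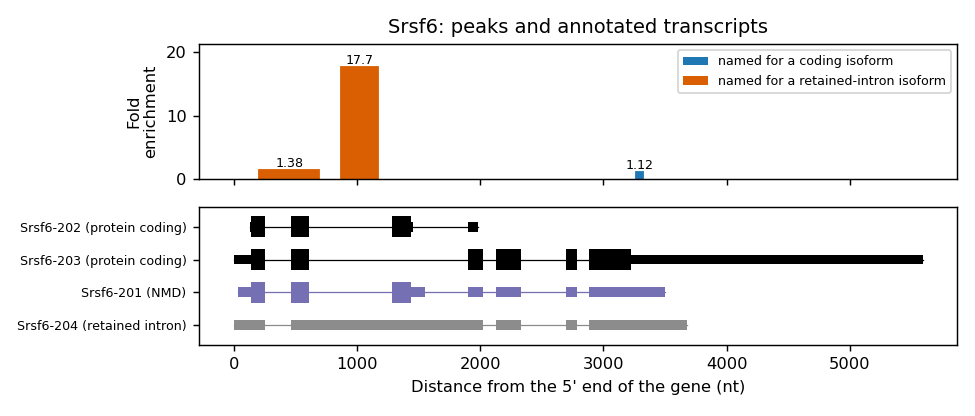
Peaks on Srsf6 (bars, height is fold enrichment, width is the genomic span) above its annotated transcripts, along the distance from the 5' end of the gene in nt (thick boxes, coding sequence; NMD, nonsense-mediated decay). The peak of 17.7 lies in intron 2 of Srsf6-203, in sequence that the retained-intron isoform keeps, upstream of the extra exon of Srsf6-201 and Srsf6-202.

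The other strong ones were Sf3a1 (13.3, intron 5), Snrpa and Hnrnpll (both 9.48) and Snrpc (5.69 and again 5.69), each with a log10 p between -2.5 and -1.42. Of the 8, 7 had exactly the same pair of fold enrichment and log10 p as another peak in the list, as did 82.3% of strong retained-intron peaks of all protein-coding genes. The pair of Snrpa and Hnrnpll occurred in 845 peaks, that of Sf3a1 in 367, that of the second Sf3b3 peak in 200 and that of the first in 109. Among the 21 strong peaks on coding isoforms 6 shared their pair (28.6%), against 72.5% of strong coding-isoform peaks of all protein-coding genes. A p-value under 0.001 was reached by 19 of these 21 (90.5%), against 55.9%. The weaker noncoding peaks were at Prpf38b (3.65, log10 p of -11.7, in intron 4), Srsf2 (1.36), Snrpb (1.39), Snrpb2 (1.9) and Hnrnpu (1.51 and, on the decay isoform, 1.76). The Snrpb peak shared 25 nt with an exon found in its decay isoform and in no coding one. Peaks at Snrpg (3.03) and Hnrnpf (2.74) were named for transcripts of the opposite strand, Gm44941 and Gm43863. The 13 retained-intron peaks that lay within 1 intron held 18.2 DRACH sites per kb, and the Srsf6 peak of 300 nt held 2. This density is over the whole genomic span of the peaks, including stretches in no annotated exon.

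Of the 147 peaks 23 shared exonic sequence with another gene, 19 on the opposite strand, and whether reads were assigned by strand is not given in the sources used here. Without these 23 the strong share was 19.4% and the median fold enrichment 1.78. Among them were the Hnrnpd 5' peaks (Gm17092, antisense) and the pair at Hnrnpm (both 4.88), which lay wholly in exons of March2. A peak of 16.6 assigned to Hnrnpk covered 13 nt of its exons and 330 nt of exons of Rmi1, and 1 peak assigned to Hnrnpab (1.83) covered 0 nt of its exons and 121 nt of Phykpl.

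The position on the transcript was read for the 129 peaks that touched an exon of the longest coding transcript. The center lay in the 3' UTR in 71 (55%, Wilson interval 46.4 to 63.4), against 56.5% of 15715 peaks of all protein-coding genes. It was in the coding sequence in 41 (31.8%) and in the 5' UTR in 17 (13.2%, 8.39 to 20.1), against 33.6% and 9.95%. Within 200 nt of the stop codon lay 37 (28.7%, 21.6 to 37), against 22.3%. The intervals of the 3' UTR and stop codon shares contain the values for all genes, while with windows of 100 and 400 nt the stop codon share was 19.4% and 48.8%, against 12.6% and 36%. The shares by family follow. Differences between families were not tested, and overlapping peaks were counted separately. The 3' UTR share was 72.2% in SR protein genes (13 of 18 peaks, interval 49.1 to 87.5) and 31.8% in Snrp genes (7 of 22, 16.4 to 52.7), whose peaks lay within 200 nt of the stop codon in 10 of 22 cases. The intervals of these 2 families overlap. The 3' UTR share was 72.7% in Prpf genes (16 of 22), 56.2% in hnRNP genes (27 of 48) and 35.7% in SF3A and SF3B genes (5 of 14). In U2AF genes it was 60% (3 of 5, interval 23.1 to 88.2), with the overlapping U2af1l4 pair among the 3. Snrp transcripts are short, for example 669 nt for Snrpe and 861 nt for Snrpf, and the part of transcript length in this was not tested. In the 3' UTR the median fold enrichment was 1.79, in the coding sequence 1.52 and in the 5' UTR 2.3, against 2.02, 2.53 and 4.0 over all protein-coding genes.

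**Figure D5:**
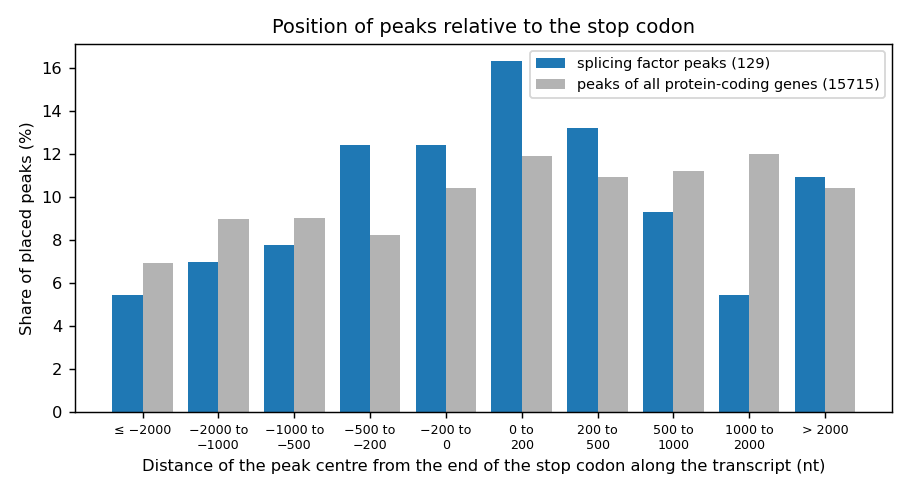
Share of placed peaks by the distance of their center from the end of the stop codon, in nt along the longest coding transcript, for 129 splicing factor peaks and 15715 peaks of all protein-coding genes (bins of unequal width). The bin from 0 to 200 nt past the stop codon is the highest for splicing factors (16.3%, against 11.9%), and the bin from 1000 to 2000 nt holds 5.43%, against 12%.

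Peaks of splicing factor genes held 17.2 DRACH sites per kb of exonic sequence (95% Poisson interval 15.9 to 18.5, 665 sites), against 20.2 over all protein-coding genes. For GGAC the densities were 3.36 and 4.03. Without Hnrnpr the splicing factor peaks held 16.3 DRACH sites per kb (484 sites). The Poisson interval treats sites as independent, although sites in overlapping peaks were counted in each of them. At least 1 DRACH site was present in 117 of 129 peaks (90.7%), against 90%, and a GGAC in 66 (51.2%), against 54.5%. A motif count describes the sequence under a peak and not a modified base. By family DRACH density ran from 14.3 in SR protein genes to 20.5 in Prpf genes.

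The rest of the pathway was described with a list of 78 other splicing genes. Of these 73 had a peak, against 46.2% of all protein-coding genes. They held 163 peaks, with a median fold enrichment of 2.0 and 42 strong ones (25.8%). Over peaks of all protein-coding genes the median was 2.37 and the strong share 29.5%. Of the 163 peaks 23 (14.1%) were named for noncoding isoforms, against 8.82% over all protein-coding genes. The highest fold enrichments were 140 at Syncrip, a close relative of Hnrnpr, 115 at Srek1 and 102 at Rbm5, the last on a retained-intron isoform. Among the most significant peaks were those at Snrnp70, the U1 70K protein (log10 p of -477, fold enrichment 9.98), and Srek1 (-365). Genes of the catalytic steps and helicases were at the low end, with 3 of 29 peaks strong (10.3%), and the SR-like and nuclear speckle genes at the high end, with 11 of 28 (39.3%).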

How the data were processed

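m6A immunoprecipitates and inputs from splenic NK cells were sequenced as 4 libraries (MeRIP-seq). After trimming, the authors mapped the reads with HISAT2 (the submitters' processing notes name GRCm38), called peaks with exomePeak and annotated them with ChIPseeker. The deposited list holds 20751 rows, of which 24 are exact repeats that were dropped, and 0 columns with a value per sample. The fold enrichment is the authors' ratio of immunoprecipitate to input reads. The significance is a deposited score, the base-10 logarithm of each peak's p-value, with a weakest value of -1.30 and no stated adjustment. The deposited width counts introns inside a peak. How replicates were combined is not given in the sources used here.

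Gene types, transcripts and sequences came from GENCODE M21 and from the RefSeq genome sequence, both GRCm38. Of 12351 gene identifiers 12332 were found. The list names a transcript for exon peaks and none for UTR peaks, so the latter were counted as coding. Positions were read on the longest protein-coding transcript by the center of the exonic part. Motifs were counted on the strand of the gene, overlaps included. The placement and motif steps were tested on simulated data. Python 3.11.15 with pandas 2.3.3, SciPy 1.17.1 and pysam 0.24.0 was used.

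Members and gene lists were chosen with earlier results of these data known. Genes were named by rule: those with a noncoding-isoform peak, per family the 3 with the highest fold enrichment and the 3 with the lowest log10 p, those with at least 3 peaks, those beside the fold threshold and those without a peak. Other genes were named after their values were seen. Alternatives changed thresholds, classes, transcripts, windows and motifs. The planned omission of replicates was not run. Values of some named genes are not reported here.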

Additional observations from a re-analysis of the deposited data

How the results depend on the processing

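Of 44 alternative values for 8 results 34 moved by less than their interval or, for the number of peaks, by less than 1.5 times. The other 10 moved by more. Only the difference in strong share between noncoding and coding isoforms could change sign, and it stayed positive. The other results cannot be negative. Keeping the repeated rows left each value it was tried on unchanged, and these values count among the 34. The alternatives without peaks that touch an exon of another gene and without Hnrnpr were chosen after seeing the data. Requiring an enrichment of 2 or more left 56 of the 147 peaks. The strong share of 19.7% became 38.1%, 29.9% and 9.52% with thresholds of 2, 3 and 10, against 60.3%, 41.7% and 17.1% over all protein-coding genes. The share on noncoding isoforms of 11.6% became 5.17% at a p-value under 0.001 and 19.6% with an enrichment of 2 or more. The share over all protein-coding genes went from 8.82% to 5.58% and 12.7%, so at a p-value under 0.001 the splicing factors were below it and not above. The share near the stop codon of 28.7% became 19.4% and 48.8% with windows of 100 and 400 nt, against 12.6% and 36%. The motif density of 17.2 per kb was 15.7 within 100 nt around the center and 3.36 for GGAC, against 19.1 and 4.03 over all protein-coding genes. The difference in strong share between noncoding and coding isoforms, 30.9 points, was 9.19 with a threshold of 10 (interval -3.77 to 32.9) and 16.1 among peaks with a p-value under 0.001, where the interval also contained 0, against 16.1 and 41.8 points over all protein-coding genes. Thresholds, windows and motif redefine what is counted. For the p-value and the center the cause was not tested.

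No paired analysis was possible because the list gives no value per sample. For the same reason no replicate was left out, and the unknown depth of the libraries sets an unknown limit for weak peaks.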
